A study of Mus musculus with 10 samples.

Results

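The transcripts described here are those of 10 genes of the circadian clock: Per1, Per2, Per3, Cry1, Cry2, Nr1d1, Nr1d2, Dbp, Arntl and Clock. They were chosen by name, and all 10 were found among the 55487 genes counted. The cells were GFP-positive, viable cells sorted from the retinas of Cx3cr1GFP/+ mice, with both retinas of an animal pooled. In these mice 1 copy of the fractalkine receptor gene Cx3cr1 is replaced by green fluorescent protein, which marks microglia and also other myeloid cells, so every group, Control included, has 1 working copy of that receptor gene. The 8wk STZ group holds 4 mice 8 weeks after streptozotocin (STZ), the 4wk STZ group holds 3 mice 4 weeks after it, and the Control group holds 3 littermates. STZ is toxic to pancreatic beta cells, the source of insulin, and renders mice diabetic. The labels give no animal ages, no hour of the day at which eyes were taken and no library batch, so the effects of harvest hour, age and diabetes on a clock transcript cannot be told apart.

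The clock of a mammalian cell is a feedback loop. CLOCK and BMAL1 (the product of Arntl) bind E-box sequences and activate the Per and Cry genes, whose proteins return to the nucleus and repress CLOCK and BMAL1. The same pair activates Nr1d1 and Nr1d2, which encode the nuclear receptors REV-ERB alpha and beta, and Dbp, a factor that binds D-boxes. REV-ERBs repress Arntl by binding ROR elements, while the ROR receptors activate it through the same elements. In most mouse tissues Arntl RNA peaks at nearly the opposite time of day from Nr1d1 and Dbp RNA, which is why the levels of these genes depend on the hour at which tissue is taken. Microglia have a clock of their own, and Per1 also responds quickly to glucocorticoids and to cAMP signals.

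Promoter sequence from the RefSeq table of build GRCm38.p6 was found for 9 of the 10 genes, in 13 windows of 300 bases that each run from 250 bases before a start site to 50 after it. Per2 was the gene with no entry. Both strands were searched for an E-box (CACGTG), a D-box (TTATGTAA), the core of a ROR element (TAGGTCA) and a cAMP response element (TGACGTCA), none of which overlapped another. An E-box lay in a window of 2 of the 9 genes, Per1 and Cry1, against 8.09% of the 27025 genes in the table. A D-box lay in the window of 1 gene, Per3, which held 2 copies, against 1.11% of genes. The ROR element core lay in a window of 1 gene, Arntl, against 2.97% of genes, and the cAMP response element lay in none of the 9, against 2.03%. The stretches below show where these matches lie, 5′ to 3′, with the motif in capitals. The first 3 end at the base before the start site and the Arntl stretch surrounds a match that begins 31 bases into the transcript.
Per1, chr11:69098699-69098948, plus strand: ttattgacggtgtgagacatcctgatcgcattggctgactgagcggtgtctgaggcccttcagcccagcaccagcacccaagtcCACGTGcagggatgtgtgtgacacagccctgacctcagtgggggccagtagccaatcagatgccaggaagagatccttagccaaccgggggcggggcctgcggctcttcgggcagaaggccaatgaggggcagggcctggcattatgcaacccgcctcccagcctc
Cry1, chr10:85185055-85185304, minus strand: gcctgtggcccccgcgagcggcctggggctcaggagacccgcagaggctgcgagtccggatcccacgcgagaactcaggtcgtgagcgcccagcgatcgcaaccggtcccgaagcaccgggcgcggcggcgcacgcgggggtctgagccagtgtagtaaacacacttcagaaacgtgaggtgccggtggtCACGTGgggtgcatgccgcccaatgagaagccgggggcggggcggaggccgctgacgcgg
Per3, chr4:151044666-151044915, minus strand: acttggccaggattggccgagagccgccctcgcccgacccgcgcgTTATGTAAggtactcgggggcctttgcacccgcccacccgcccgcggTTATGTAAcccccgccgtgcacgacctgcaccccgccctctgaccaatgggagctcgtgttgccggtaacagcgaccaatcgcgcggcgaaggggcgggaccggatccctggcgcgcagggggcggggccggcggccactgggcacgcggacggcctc
Arntl, chr7:113207530-113207558, plus strand: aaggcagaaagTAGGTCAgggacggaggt
The Per1 E-box began 166 bases before the start site of its window and that of Cry1 began 60 bases before its own. Per1 and Arntl each had 2 windows, for 2 start sites, and in each the match lay in only 1 of them. The D-boxes of Per3 began 205 and 158 bases before its start site. A match is a description of the letters, not of a bound factor, and these windows do not cover introns or distant elements.

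Reads per library ran from 46143178 to 62903489 in 8wk STZ, from 33266838 to 49051036 in 4wk STZ and from 45656309 to 54312248 in Control. Levels are in CPM, read counts scaled to library size with TMM factors that correct for composition, and a mean is given with its SD between animals (n = 4 for 8wk STZ, 3 for 4wk STZ and 3 for Control). The 10 markers of microglia took 2.82% to 3.16% of reads in 8wk STZ, 2.98% to 3.36% in 4wk STZ and 3.38% to 3.69% in Control. The 16 rod photoreceptor markers took 0.299% to 0.434% in 8wk STZ, 0.452% to 0.641% in 4wk STZ and 0.894% to 1.02% in Control, so RNA of other retinal cells was present in every library. All of the markers in both lists had reads in each group.

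Compared per kilobase of exon, the nuclear receptor genes were the highest of the 10 and Dbp and Per2 the lowest. Averaged over the 10 libraries, Nr1d1 stood at 5.40 CPM per kb and Nr1d2 at 4.15. Per3 followed at 2.83, Cry1 at 2.23, Cry2 at 1.88 and Per1 at 1.73 CPM per kb. The activators Clock and Arntl were at 1.47 and 1.45 CPM per kb, and Per2 and Dbp were at 0.761 and 0.665. Neighbours in this order mostly did not differ beyond their spread within a group: in Control, for example, Clock was at 1.22 ± 0.272 and Arntl at 1.57 ± 0.633 CPM per kb (n = 3). In Control, Nr1d1 stood clear of Nr1d2, at 8.16 ± 1.34 against 3.75 ± 1.05 CPM per kb (n = 3). In 8wk STZ these values were 4.25 ± 1.47 for Nr1d1 and 3.92 ± 0.693 for Nr1d2 (n = 4), and in 4wk STZ they were 4.16 ± 0.340 and 4.84 ± 0.0830 (n = 3). Among 18925 tested genes with an exon length, Nr1d1 lay at percentile 68.9 of level per kb and Dbp at percentile 32.2, so all 10 were transcripts of middling or low abundance.

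The comparison of diabetic with littermate microglia asks how the transcripts of these cells differ at each time after STZ. None of the 10 clock genes passed edgeR's quasi-likelihood test at an adjusted p of 0.05 (Benjamini-Hochberg over 18957 genes) in any of the 3 comparisons. Over all genes 2.37% passed in 8wk STZ against Control, 0% in 4wk STZ against Control and 0.918% in 8wk STZ against 4wk STZ. At an unadjusted p below 0.05 by the same test, 3 of 10 clock genes stood out in 8wk STZ against Control, against 15.7% of all genes. In 4wk STZ against Control there were 2 of 10, against 9.75%, and in 8wk STZ against 4wk STZ 2 of 10, against 13.7%. The median log2 fold change of the 10 was 0.17 in 8wk STZ against Control, 0.02 in 4wk STZ against Control and 0.18 in 8wk STZ against 4wk STZ, where the median of all genes was within 0.01 of 0 in each. Groups did not overlap for 2 of 10 in 8wk STZ against Control, Per1 and Nr1d1, against 16.9% of all genes. They did not overlap for 2 of 10 in 4wk STZ against Control, Nr1d1 and Cry1, against 12.3%, and for 0 of 10 in 8wk STZ against 4wk STZ, against 15.4%. DESeq2 called 2 of 10 in 8wk STZ against Control, against 8.52% of all genes with an adjusted p, 1 of 10 in 4wk STZ against Control, against 1.77%, and 0 of 10 in 8wk STZ against 4wk STZ, against 7.1%. The likelihood ratio test of edgeR called 2 of 10 in 8wk STZ against Control (6.15% of all genes), 0 of 10 in 4wk STZ against Control (1.29%) and 0 of 10 in 8wk STZ against 4wk STZ (4%). The comparisons with Control share the same 3 Control libraries.

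**Figure D1:**
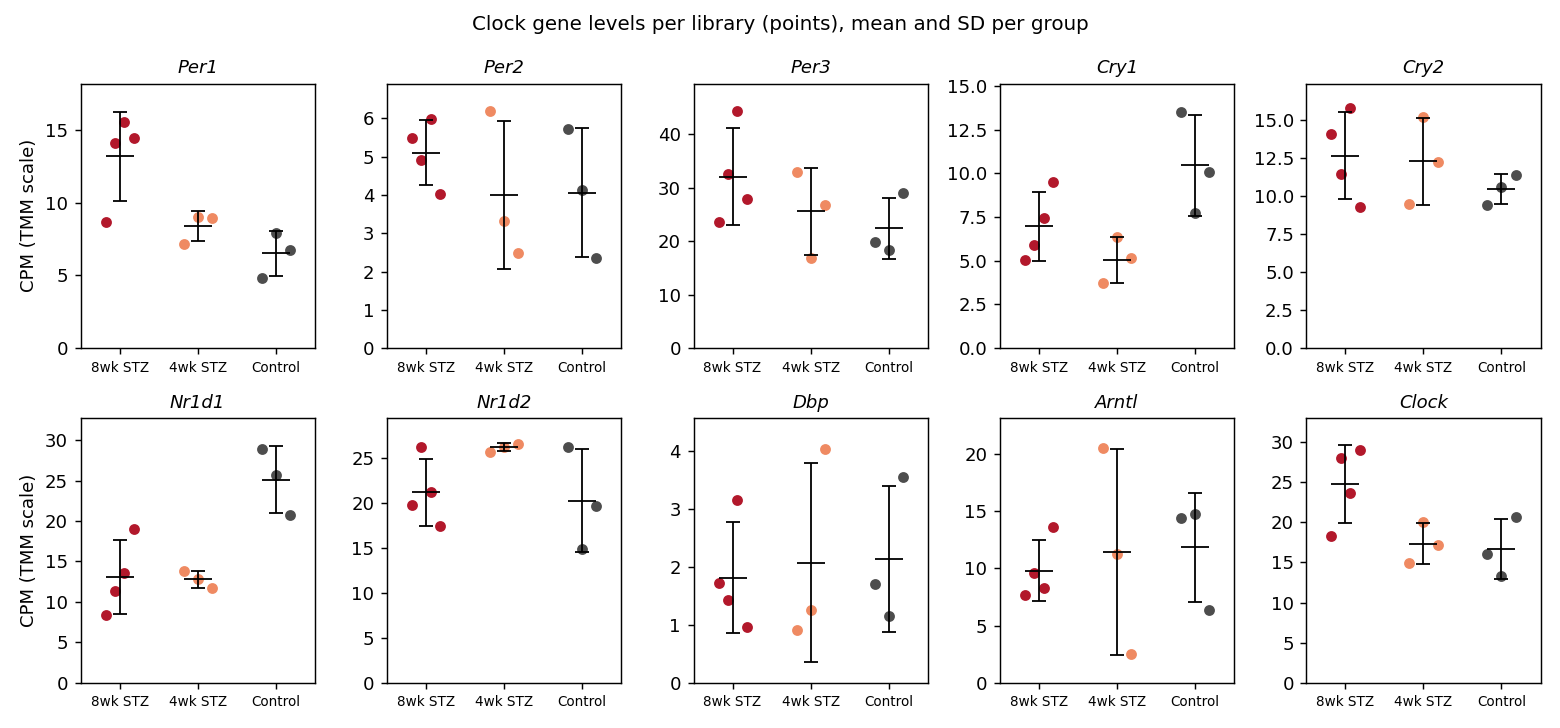
Level of each clock gene per library in CPM on the TMM scale, with the y axis of each panel starting at 0. Points are libraries, the long bar is the group mean and the whiskers are 1 SD (n = 4 for 8wk STZ, 3 for 4wk STZ and 3 for Control). Per1 is highest in 8wk STZ, Nr1d1 is highest in Control with no overlap with either STZ group, and Arntl and Dbp are widely spread within 4wk STZ and Control.

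Among the repressors of the negative limb, Per1 had the largest difference at 8 weeks. Per1, the PERIOD gene that outside signals also induce within a short time, was at 8.65, 14.1, 15.5 and 14.4 CPM in the 8wk STZ libraries. It was at 7.19, 8.99 and 8.96 CPM in 4wk STZ and at 4.84, 7.90 and 6.77 CPM in Control. Every 8wk STZ library lay above every Control library, and the lowest 8wk STZ library lay among the 4wk STZ ones. The mean was 13.2 ± 3.08 CPM in 8wk STZ, 8.38 ± 1.03 in 4wk STZ and 6.51 ± 1.54 in Control. The log2 fold change in 8wk STZ against Control was 1.02 (SE 0.268, 95% interval 0.43 to 1.61), which did not pass the edgeR quasi-likelihood test after Benjamini-Hochberg adjustment (adjusted p = 0.0801). It was 0.36 in 4wk STZ against Control (SE 0.281, adjusted p = 0.759) and 0.65 in 8wk STZ against 4wk STZ (SE 0.265, adjusted p = 0.305). The call on Per1 at 8 weeks depended on the method, since its adjusted p was 0.00808 by DESeq2, which called 8.52% of all genes with an adjusted p, and 0.0188 by edgeR's likelihood ratio test, which called 6.15%. In the authors' deposited table, in which 7.29% of genes have a false discovery rate below 0.05 at 8 weeks, Per1 has a log2 fold change of 1.01 and a false discovery rate of 0.0348.

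Genes that answer to signals known to induce Per1 were set beside it. The 8 immediate early genes listed, among them Fos and Egr1, together took 0.0528% to 0.0892% of reads in 8wk STZ, 0.0365% to 0.0572% in 4wk STZ and 0.0312% to 0.0454% in Control. Every 8wk STZ library was above every Control library in this sum. Taken singly, 16.9% of all genes had groups that did not overlap in this comparison, in either direction. None of the 8 passed edgeR's quasi-likelihood test in 8wk STZ against Control (adjusted p = 0.0587 to 0.997). Their log2 fold changes ran from -0.01 for Fosb to 1.85 for Fos, with a median of 0.72. Fos itself was at 57.8 to 144 CPM in 8wk STZ, 19.7 to 47.9 CPM in 4wk STZ and 14.1 to 54.3 CPM in Control (log2 fold change 1.85 in 8wk STZ against Control, SE 0.52, adjusted p = 0.0989). The 6 glucocorticoid-induced genes listed, among them Fkbp5 and Tsc22d3, took 0.128% to 0.159% of reads in 8wk STZ, 0.125% to 0.151% in 4wk STZ and 0.108% to 0.129% in Control. By edgeR's quasi-likelihood test 1 of the 6, Tsc22d3, rose in 8wk STZ against Control, where 2.37% of all genes passed. Tsc22d3, which encodes the glucocorticoid-induced leucine zipper, was at 339, 331, 320 and 433 CPM in 8wk STZ, at 405, 346 and 280 CPM in 4wk STZ and at 212, 233 and 246 CPM in Control. Its log2 fold change was 0.63 (SE 0.141, adjusted p = 0.0462), and it was called in 2 of the 10 fits that leave out a library, with an adjusted p of 0.031 to 0.134. The median log2 fold change of the 6 was 0.13. Among the rest Fkbp5 was at 0.50, Sult1a1 at 0.22, Sgk1 at 0.04, Errfi1 at -0.36 and Zbtb16 at -0.62. Fkbp5 did not pass the same test (SE 0.15, adjusted p = 0.119). Its groups did not overlap, at 39.5 to 52.9 CPM in 8wk STZ and 29.4 to 36.3 CPM in Control. The part of these genes in the level of Per1 was not tested.

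The other PERIOD genes did not separate the groups. Per2, which like Per1 encodes a repressor of CLOCK and BMAL1, was at 5.49, 4.91, 5.99 and 4.03 CPM in 8wk STZ, at 6.19, 3.32 and 2.49 CPM in 4wk STZ and at 5.71, 4.12 and 2.36 CPM in Control. The 3 groups overlapped throughout, and the log2 fold change in 8wk STZ against Control was 0.33 with a 95% interval from -0.56 to 1.22. Per3, which is not needed for rhythm in mice and whose window holds the D-boxes shown above, was at 23.5, 32.5, 44.4 and 27.9 CPM in 8wk STZ. It was at 32.96, 16.9 and 26.8 CPM in 4wk STZ and at 19.9, 18.4 and 28.9 CPM in Control. Its highest library belonged to 8wk STZ, but the groups overlapped, and the log2 fold change in 8wk STZ against Control was 0.52 (SE 0.280, adjusted p = 0.429 by edgeR's quasi-likelihood test).

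The CRYPTOCHROME genes, whose proteins are the strongest repressors in the loop, gave no call. Cry1 was at 5.03, 5.91, 7.42 and 9.52 CPM in 8wk STZ, at 3.70, 6.34 and 5.13 CPM in 4wk STZ and at 13.5, 7.74 and 10.1 CPM in Control. All 3 of the 4wk STZ libraries lay below all 3 of the Control libraries, while 8wk STZ overlapped with both. The log2 fold change of Cry1 in 4wk STZ against Control was -1.05 (SE 0.335, 95% interval -1.79 to -0.31), with an adjusted p of 0.361 by edgeR's quasi-likelihood test. At 8 weeks it was -0.58 against Control (SE 0.307, adjusted p = 0.413). Cry2 was at 14.1, 11.5, 15.8 and 9.27 CPM in 8wk STZ, at 9.47, 15.2 and 12.3 CPM in 4wk STZ and at 9.39, 10.6 and 11.4 CPM in Control, with overlapping groups. Its log2 fold change in 8wk STZ against Control was 0.27, with a 95% interval from -0.26 to 0.80.

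The REV-ERB genes gave no call by the same test, and the difference between the pair was not tested. Nr1d1 was at 8.38, 11.3, 13.6 and 19.1 CPM in 8wk STZ and at 13.9, 12.8 and 11.8 CPM in 4wk STZ. In Control it was at 28.9, 25.7 and 20.7 CPM. Each of the 7 STZ libraries lay below each of the 3 Control libraries, and the STZ groups overlapped with each other. The log2 fold change was -0.94 in 8wk STZ against Control (SE 0.256, 95% interval -1.50 to -0.38), with an adjusted p of 0.0888 by edgeR's quasi-likelihood test. In 4wk STZ against Control it was -0.97 (SE 0.279, 95% interval -1.58 to -0.36, adjusted p = 0.316), and between the STZ groups it was 0.03 (SE 0.259, adjusted p = 0.982). At 8 weeks the adjusted p was 0.00985 by DESeq2, 0.0184 by edgeR's likelihood ratio test and 0.0465 by the quasi-likelihood test without 8wk STZ 4, the highest STZ library. The other alternatives at 8 weeks gave 0.0513 to 0.211, with 3 calls in 20. At 4 weeks it was 0.0498 by DESeq2, 0.077 by the likelihood ratio test and up to 0.597 over the alternatives, with 1 call in 20. In the authors' deposited table the false discovery rate of Nr1d1 is 0.0184 at 8 weeks and 0.103 at 4 weeks, where 0.801% of genes lie below 0.05.

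Nr1d2 was at 19.8, 26.3, 21.3 and 17.4 CPM in 8wk STZ, at 25.7, 26.3 and 26.6 CPM in 4wk STZ and at 26.2, 14.9 and 19.7 CPM in Control. Its groups overlapped, and its log2 fold change was 0.06 in 8wk STZ against Control (95% interval -0.40 to 0.52) and 0.37 in 4wk STZ against Control (95% interval -0.12 to 0.86). Nr1d1 shares 263 bases of exon (8.55% of its own) with Thra, a thyroid hormone receptor gene on the opposite strand. The library kit does not mark strand, so reads of the shared stretch cannot be assigned to a strand. Thra was at 7.95, 1.74, 4.91 and 7.55 CPM in 8wk STZ, at 2.55, 3.75 and 2.15 CPM in 4wk STZ and at 4.15, 5.04 and 6.19 CPM in Control, so that it overlapped with Control in 8wk STZ and lay below Control in 4wk STZ. The correlation of Nr1d1 with Thra over the 10 libraries was r = 0.241, given as a description.

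The activators gave no call either. Clock, the partner of BMAL1, was at 18.3, 28.0, 23.7 and 29.1 CPM in 8wk STZ, at 14.9, 20.0 and 17.1 CPM in 4wk STZ and at 16.03, 13.3 and 20.7 CPM in Control. In total 3 of the 4 libraries of 8wk STZ were above every other library, and the other lay within the range of the other groups. The log2 fold change of Clock was 0.57 in 8wk STZ against Control (SE 0.219, 95% interval 0.09 to 1.05, adjusted p = 0.230 by edgeR's quasi-likelihood test) and 0.51 in 8wk STZ against 4wk STZ (SE 0.218, adjusted p = 0.330). Arntl was at 7.65, 9.54, 8.30 and 13.6 CPM in 8wk STZ, at 20.5, 11.2 and 2.55 CPM in 4wk STZ and at 14.4, 14.8 and 6.33 CPM in Control. The highest and the lowest of all 10 libraries were both 4wk STZ libraries. Its log2 fold change was -0.27 in 8wk STZ against Control, with a 95% interval from -1.48 to 0.93.

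Dbp, the D-box factor that is among the most strongly cycling transcripts of many tissues, was the lowest of the 10. It was at 1.73, 1.42, 3.16 and 0.957 CPM in 8wk STZ, at 0.914, 1.26 and 4.04 CPM in 4wk STZ and at 1.71, 1.15 and 3.56 CPM in Control. Each group held 1 library well above the rest of its group, and the groups overlapped. These values rest on 44 to 183 reads per library. The highest, 4.04 CPM in 4wk STZ 3, has a 95% Poisson interval of 3.38 to 4.80 CPM, and the lowest, 0.914 CPM in 4wk STZ 1, one of 0.664 to 1.23 CPM. Such intervals cover counting error only. The log2 fold change of Dbp in 8wk STZ against Control was -0.24, and its 95% interval from -1.68 to 1.21 was the widest of the 10 in that comparison. Dbp shares 539 bases of exon (18.0% of its own) with Sphk2, a sphingosine kinase gene on the opposite strand that was at 47.1 to 62.3 CPM in 8wk STZ, 46.5 to 55.7 CPM in 4wk STZ and 34.4 to 68.6 CPM in Control. The correlation of Dbp with Sphk2 over the libraries was r = 0.26. Here too, reads of the shared stretch cannot be assigned to a strand, and their effect on the level of Dbp was not tested. The order of Dbp and Per2 per kilobase, at 0.665 and 0.761 CPM per kb, is therefore not secure.

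**Figure D2:**
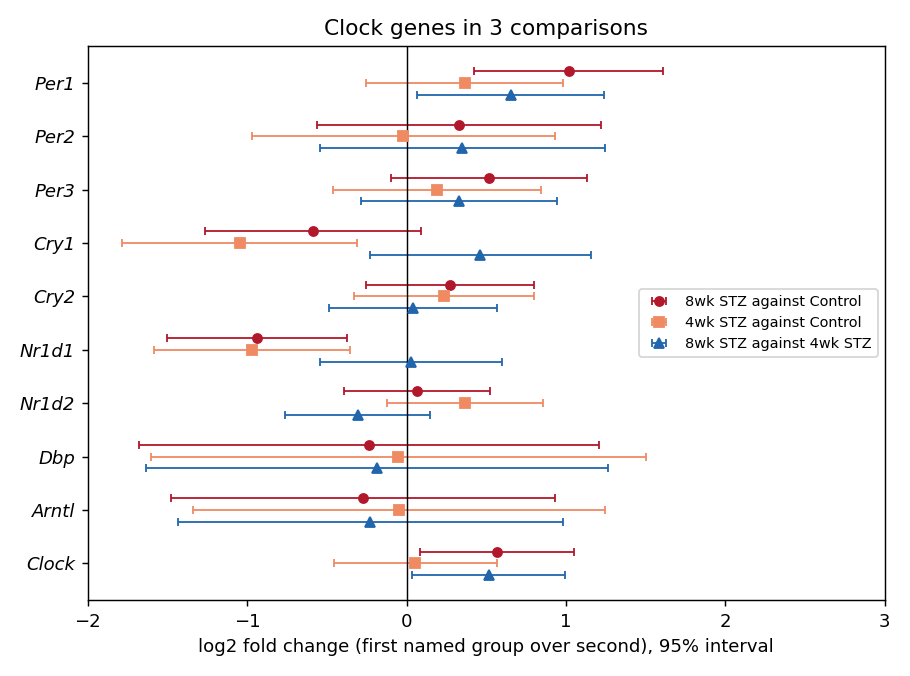
Log2 fold change of each clock gene in the 3 comparisons (first named group over second) from the edgeR fit, with lines for the 95% interval. The intervals of Per1 (0.43 to 1.61), Clock (0.09 to 1.05) and Nr1d1 (-1.50 to -0.38) in 8wk STZ against Control lie on one side of 0, and those of Dbp and Arntl are the widest.

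Within groups, Arntl and Dbp varied most and Nr1d2 least. The SD of log2 CPM within groups was 0.931 for Arntl, at percentile 72.1 of 18957 tested genes, and 0.865 for Dbp, at percentile 70.2. Per2 followed at 0.518, Per3 at 0.411, Cry1 at 0.396 and Nr1d1 at 0.355. Per1 had an SD of 0.331, Cry2 of 0.296, Clock of 0.285 and Nr1d2 of 0.272, at percentile 28.6. The median over all tested genes was 0.450, so 7 of the 10 clock genes varied less between animals of a group than the median gene did. Low counts widen this measure, and Dbp was read at a far lower level than Arntl.

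Arntl and Dbp varied in opposite directions between animals. Over the 10 libraries their log2 CPM correlated at r = -0.85 (permutation p = 0.00044, two-sided, 0.0198 after Benjamini-Hochberg adjustment over the 45 pairs of the 10 genes). Spearman's rho was -0.891 (permutation p = 0.00139, adjusted 0.0625). Without 4wk STZ 3 and Control 3, the libraries farthest from the median of Dbp, r was -0.72 (exact permutation p = 0.0372), and on deviations from the group means it was -0.894. With library totals as the only scaling r was -0.855. Arntl's correlation with 23 of the 18956 other tested genes was lower than with Dbp, which puts Dbp in the lowest 0.127%. On deviations from the group means 79 genes were lower than Dbp.

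The ratio of Dbp to Arntl CPM shows how far the animals of a group lay apart. It was 0.226, 0.149, 0.381 and 0.0704 in the 8wk STZ libraries, 0.0447, 0.113 and 1.59 in 4wk STZ and 0.119, 0.0777 and 0.563 in Control. In 4wk STZ the lowest and the highest ratio of all 10 libraries stood in the same group. The highest ratio of each group belonged to the library that the labels number 3, an observation made after the values were seen. The labels do not say that a number marks a shared day or litter. Harvest hour is not given, so its part in this pattern was not tested. Ciart, another repressor of CLOCK and BMAL1 that cycles with Dbp in mouse tissues, was named after its values were seen. It was at 1.32, 0.701, 1.73 and 2.03 CPM in 8wk STZ, at 1.02, 1.26 and 3.73 CPM in 4wk STZ and at 2.47, 0.833 and 3.91 CPM in Control. It correlated with Dbp at r = 0.71 and with Arntl at r = -0.598 over the libraries.

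**Figure D3:**
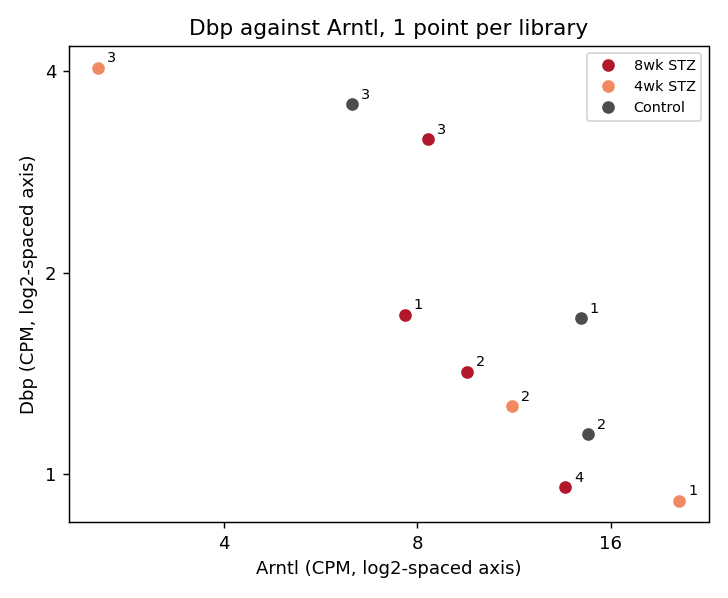
Dbp against Arntl in CPM on log2-spaced axes, 1 point per library, coloured by group and numbered by replicate. Libraries with high Dbp have low Arntl (r = -0.85 over 10 libraries), from 4wk STZ 3 at 4.04 CPM of Dbp and 2.55 CPM of Arntl to 4wk STZ 1 at 0.914 and 20.5 CPM.

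None of the other 44 pairs passed the adjustment by Pearson's r, and none of the 45 passed it by Spearman's rho. Cry1 and Nr1d1 correlated at r = 0.778 (permutation p = 0.00863, adjusted 0.138), at rho = 0.77 (permutation p = 0.0131, adjusted 0.294) and at r = 0.836 without the 2 libraries farthest from the median of Cry1. Within groups their r was 0.616. Per1 and Clock correlated at r = 0.772 (permutation p = 0.00917, adjusted 0.138), at rho = 0.697 (permutation p = 0.0304, adjusted 0.457) and at r = 0.814 without the 2 farthest libraries, and within groups at r = 0.467. Per2 and Arntl correlated at r = 0.632 (permutation p = 0.0443, adjusted 0.498), at rho = 0.527 (permutation p = 0.122, adjusted 0.664) and at r = -0.0152 without 4wk STZ 3 and Control 3, so that relation rests on those libraries. Arntl and Nr1d1, whose RNA peaks at opposite times in most mouse tissues, correlated at r = 0.403 over the libraries (the sign opposite to that of Arntl with Dbp) and at r = 0.49 within groups.

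**Figure D4:**
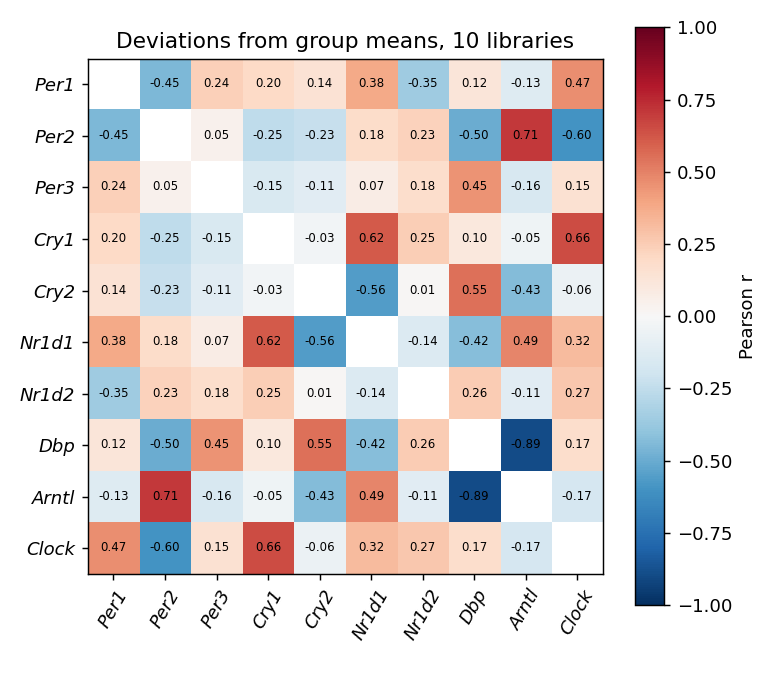
Pearson correlation of every pair of clock genes on deviations of log2 CPM from the group means, over 10 libraries. The darkest cells are Dbp with Arntl (-0.89) and Per2 with Arntl (0.71), and most other pairs are weak.

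Ranked over genes whose mean log2 CPM reached 2, the genes whose level over the 10 libraries was most like that of Dbp were D17H6S53E (r = 0.952), Nsrp1 (0.919), Klhl8 (0.911), Zfyve28 (0.892) and C5ar2 (0.879). Most like Nr1d1 were Polr1a (r = 0.91), Adprh (0.901), Ets2 (0.886), Nol6 (0.886) and Mavs (0.884). Most like Arntl were Vkorc1l1 (r = 0.94), Btbd10 (0.928), Zwint (0.926), St14 (0.905) and Carm1 (0.899). No clock gene was among the 5 nearest of any of these 3. The ranking took the highest r only, so genes that vary in the opposite direction could not appear. Dbp and Ciart, at a mean log2 CPM of 0.83 and 0.738, were too low to be ranked. With 9433 or 9434 genes ranked on 10 libraries, values of this size are a description only.

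Beyond the 10, 26 other genes of the clock were listed, and 23 of them had enough reads to be tested. At 8 weeks 0 rose and 2 fell against Control, where 2.37% of all genes passed: the nuclear receptor genes Rora and Rorb. In 8wk STZ against 4wk STZ 0 rose and 1 fell, Rorb, where 0.918% of all genes passed, and in 4wk STZ against Control none passed edgeR's quasi-likelihood test, DESeq2 or edgeR's likelihood ratio test. At an unadjusted p below 0.05 there were 5 of 23 in 8wk STZ against Control (15.7% of all genes), 6 in 8wk STZ against 4wk STZ (13.7%) and 2 in 4wk STZ against Control (9.75%). The median log2 fold change of the 23 was -0.17 in 8wk STZ against Control, -0.15 in 8wk STZ against 4wk STZ and -0.03 in 4wk STZ against Control. Npas2 and Arntl2, the paralogs of Clock and Arntl, had too few reads to be tested.

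Rorb, a ROR receptor that rods and other retinal neurons also use, was at 30.5, 31.5, 23.1 and 30.4 CPM in 8wk STZ, at 80.1, 76.1 and 55.3 CPM in 4wk STZ and at 84.0, 63.4 and 85.4 CPM in Control. All 4 of the 8wk STZ libraries lay below all of the others, and 4wk STZ overlapped with Control. Its log2 fold change was -1.43 in 8wk STZ against Control (SE 0.169, adjusted p = 0.00286 by edgeR's quasi-likelihood test with Benjamini-Hochberg adjustment). In 8wk STZ against 4wk STZ it was -1.29 (SE 0.169, adjusted p = 0.0166), and this call was lost without 8wk STZ 4 (adjusted p = 0.0526). In 4wk STZ against Control it was -0.14 (SE 0.182, adjusted p = 0.893).

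Rora, the ROR receptor found in most tissues, was at 13.8, 14.8, 10.8 and 15.9 CPM in 8wk STZ, at 20.8, 14.3 and 29.9 CPM in 4wk STZ and at 29.7, 29.6 and 33.5 CPM in Control. The 8wk STZ libraries lay below the Control libraries, and 4wk STZ spread over the ground between. The log2 fold change was -1.16 in 8wk STZ against Control (SE 0.235, adjusted p = 0.0298 by edgeR's quasi-likelihood test). Leaving out any 1 of the 4 libraries of 8wk STZ or the 3 of Control gave an adjusted p of 0.064 to 0.0921 with a log2 fold change of -1.24 to -1.06, and leaving out Control 3 together with 4wk STZ 3 gave an adjusted p of 0.0479. In the authors' deposited table the false discovery rate at 8 weeks is 0.000348 for Rora and 1.58e-12 for Rorb.

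Markers of other retinal cells also differed between the groups. The summed share of the 16 rod markers was lowest in 8wk STZ and highest in Control, as given above. In 8wk STZ against Control 16 of 16 fell, where 2.37% of all genes passed. Their median log2 fold change there was -1.44, against -1.43 for Rorb. In 8wk STZ against 4wk STZ 6 of 16 rod markers fell, where 0.918% of all genes passed. The median of the 16 there was -0.76, against -1.29 for Rorb. In 4wk STZ against Control none of the 16 passed, with a median of -0.66, against -0.14 for Rorb. Rora was at -1.16 in 8wk STZ against Control, -0.65 in 8wk STZ against 4wk STZ and -0.52 in 4wk STZ against Control. Only the first of these Rora values passed. The 10 markers of inner retinal neurons took 0.0077% to 0.0119% of reads in 8wk STZ, 0.0175% to 0.0193% in 4wk STZ and 0.0195% to 0.0215% in Control, so the 8wk STZ libraries were lowest there. Of these 10, 3 fell in 8wk STZ against Control, and their median log2 fold change was -1.21 in 8wk STZ against Control, -1.05 in 8wk STZ against 4wk STZ and 0.00897 in 4wk STZ against Control. The 6 markers of Müller glia took 0.0690% to 0.0918% in 8wk STZ, 0.103% to 0.121% in 4wk STZ and 0.0872% to 0.128% in Control. Of these 6, 2 fell in 8wk STZ against Control, and their median was -1.11 in 8wk STZ against Control, -1.02 in 8wk STZ against 4wk STZ and -0.20 in 4wk STZ against Control. Of the 10 microglia markers 4 fell in 8wk STZ against Control, with a median of -0.33. The 6 markers of border macrophages took 0.0016% to 0.0561% of reads in 8wk STZ, 0.0116% to 0.0365% in 4wk STZ and 0.00726% to 0.0359% in Control. Their share thus varied widely within each group, and none of them passed in any of the comparisons. The part of these cells in the fall of Rora and Rorb was not tested, and fewer cells of a type and less RNA per cell cannot be told apart in sorted bulk samples.

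**Figure D5:**
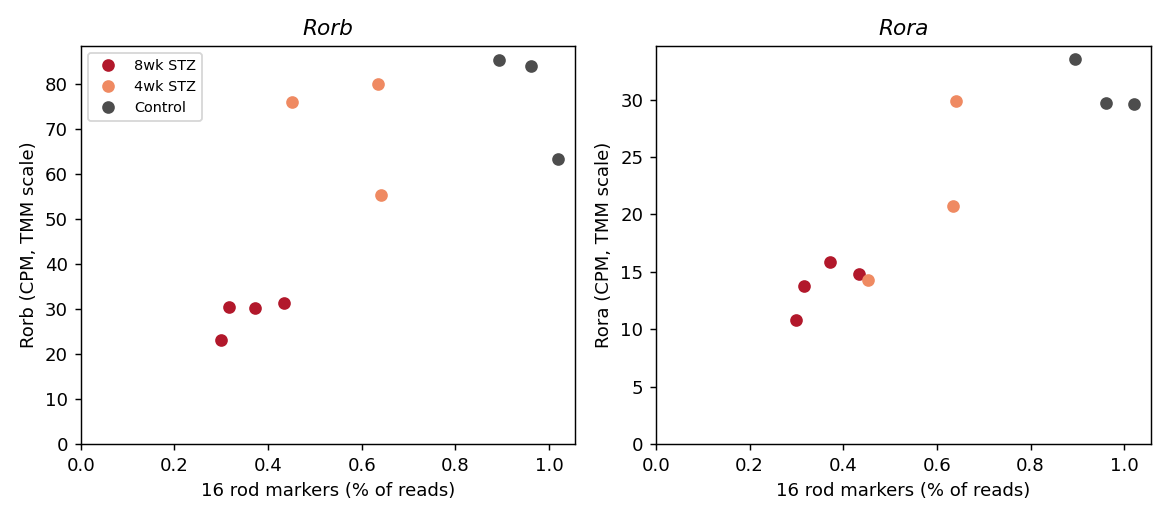
Rorb (left) and Rora (right) in CPM on the TMM scale against the share of reads in 16 rod markers, 1 point per library. The 8wk STZ libraries lie lowest on both axes for Rorb (23.1 to 31.5 CPM at 0.299% to 0.434% of reads), and the 4wk STZ libraries have Rorb levels like Control at a lower rod share.

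The remaining clock genes with the highest levels were Bhlhe41, Usp2, Gsk3b and Csnk1a1. Bhlhe41, a repressor of CLOCK and BMAL1 also known as DEC2, was by far the highest in CPM, at 1035, 1162, 1180 and 1002 CPM in 8wk STZ, at 1283, 1382 and 1797 CPM in 4wk STZ and at 1014, 942 and 1239 CPM in Control. The 4wk STZ libraries lay above all of the others, yet the log2 fold change of 0.48 in 4wk STZ against Control had an adjusted p of 0.318 by edgeR's quasi-likelihood test (SE 0.141), and -0.44 in 8wk STZ against 4wk STZ one of 0.156 (SE 0.131). Of its exon bases 19.0% are shared with Gm43909 on the opposite strand. Usp2, a ubiquitin protease under clock control, averaged 268 ± 41.1 CPM in 8wk STZ (n = 4), 253 ± 24.7 in 4wk STZ (n = 3) and 292 ± 8.01 in Control (n = 3). Gsk3b, a kinase that acts on several clock proteins, averaged 207 ± 19.7 CPM in 8wk STZ (n = 4), 283 ± 73.4 in 4wk STZ (n = 3) and 269 ± 16.2 in Control (n = 3), with an adjusted p of 0.242 in 8wk STZ against Control. The casein kinase gene Csnk1a1 averaged 193 ± 16.4 CPM in 8wk STZ (n = 4), 211 ± 36.0 in 4wk STZ (n = 3) and 223 ± 8.08 in Control (n = 3), and it did not pass in any of the 3 comparisons.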

How the data were processed

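RNA of 10 sorted retinal microglia samples was sequenced in pairs. The deposited table holds whole-number read counts per gene, per the file headers. Per the submitters' processing notes, STAR, featureCounts (Subread), Salmon, bcl2fastq, limma and edgeR were used with build GRCm38. The sources used here do not say which of them made the table, nor its annotation, strand setting or handling of reads with several matches. A second deposited table gives the authors' log2 fold changes, p-values and FDR against Control, and is quoted only where named. Of the numeric columns, 1 was not used.

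The table has 55774 entries, 287 of them identical repeats, leaving 55487 genes. Libraries of a group differed by far more than sampling noise (lowest chi-square over degrees of freedom 48.2), and each comes from a separate animal. Counts were scaled by TMM, filtered with filterByExpr (18957 genes) and fitted over all 10 libraries (7 residual degrees of freedom) in edgeR 4.0.16 under R 4.3.3. The robust quasi-likelihood F-test was used with Benjamini-Hochberg adjustment over all genes, with calls made at 0.05. The fit gave a biological coefficient of variation of 0.564. The script was tested on simulated data with 200 changed genes. Correlations used log2 CPM with a prior count of 2 and 100000 permutations. Gene lengths and overlaps come from GENCODE M21.

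The members, lists and tests were chosen with earlier results of these data known. The named genes are all members, the other clock genes that were called in any comparison, the 4 highest of the rest, and the 5 genes most like Dbp, Nr1d1 and Arntl. Genes that overlap these are named too. Ciart and the immediate early and glucocorticoid-induced genes were named outside this rule. DESeq2 1.42.0, limma-voom (limma 3.58.1), a likelihood ratio test, other scalings, no filter, fits of the 2 groups compared, a replicate block and the omission of libraries were run as alternatives. Same-numbered libraries did not deviate together (r = -0.03 to 0.035), so the numbers were not taken as pairs. A correlation across genes cannot decide whether a shared day acted on a few of them. Of the other clock genes, 1 is not reported here.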

Additional observations from a re-analysis of the deposited data

Results flagged for a closer look

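Rorb in 8wk STZ 3, at 23.1 CPM, lay apart from the other 3 libraries of its group, which were at 30.4 to 31.5 CPM. Its gap to the nearest of them was a larger share of the group's range than Dixon's 95% limit for 4 samples. Of 33 genes with a group of 4 examined this was the 1 that passed the limit, and chance passes about 1 in 20. Rorb differed between the STZ groups: the log2 fold change in 8wk STZ against 4wk STZ was -1.29 (adjusted p = 0.0166 by edgeR's quasi-likelihood test), with 4 of 4 libraries of 8wk STZ below every 4wk STZ library. With a replicate block the adjusted p was 0.138. Age and harvest hour cannot be told apart from time after STZ.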

How the results depend on the processing

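The 10 clock genes had no call under any other scaling, without the filter, with limma-voom or with only the groups compared. DESeq2 called 1 of them in 4wk STZ against Control (1.77% of all genes) and 2 in 8wk STZ against Control (8.52%), and edgeR's likelihood ratio test called 2 in 8wk STZ against Control (6.15%). Leaving out 1 library at a time gave 0 to 1 calls in 8wk STZ against Control. For the other clock genes, omission gave 1 to 2 calls in 8wk STZ against Control and 0 to 1 in 8wk STZ against 4wk STZ, where DESeq2 gave 4 (7.1% of all genes) and the likelihood ratio test 2 (4%). A replicate block left 1 call of these genes in 8wk STZ against Control and 0 in 8wk STZ against 4wk STZ, while over all genes it gave 44 calls where the unblocked fit gave 449, and 0 where it gave 174. Of 9 libraries numbered 1 to 3, 4 correlated best with their own number. The count that chance would give was not worked out, so no conclusion is drawn from it. The adjusted p in 8wk STZ against Control ran from 0.00808 to 0.196 for Per1 and from 0.00985 to 0.211 for Nr1d1 over the alternatives. The cause of these differences was not tested.

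Directions that turned were those of small fold changes that were never called. With limma-voom the log2 fold change was 0.0351 for Per2 in 4wk STZ against Control, and in 8wk STZ against 4wk STZ it was -0.0471 for Nr1d1, 0.0855 for Dbp and 0.0324 for Arntl. With upper-quartile factors it was -0.025 for Cry2 and -0.0356 for Nr1d1 in 8wk STZ against 4wk STZ. With the replicate block it was -0.208 for Nr1d1 and 0.217 for Dbp in 8wk STZ against 4wk STZ, and 0.054 for Dbp in 8wk STZ against Control. On leaving out 1 library, or Control 3 and 4wk STZ 3 together, the log2 fold change in 4wk STZ against Control ran from -0.4842 to 0.3042 for Per2, -0.0405 to 0.4169 for Per3, -0.9748 to 0.5319 for Dbp, -0.7754 to 0.4227 for Arntl, -0.0866 to 0.2489 for Clock and -0.2666 to 0.0844 for Rorb. In 8wk STZ against Control it ran from -0.1173 to 0.2893 for Nr1d2 and -0.6429 to 0.3479 for Dbp. In 8wk STZ against 4wk STZ it ran from -0.1166 to 0.2206 for Cry2, -0.2088 to 0.1991 for Nr1d1, -0.5932 to 0.7383 for Dbp and -0.6963 to 0.5026 for Arntl.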
